A study of Arabidopsis thaliana with 24 samples.

Results

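Alpha-expansins are secreted proteins that loosen the plant cell wall without cutting its polymers. They act best in an acidic wall, where they let cellulose and the polymers bound to it slip past each other under turgor, so that the wall yields and the cell enlarges. The family is known for its part in the growth of roots, root hairs, stems and leaves, and water deficit is known to slow such growth. The genes described here are those whose probe set on the Arabidopsis ATH1 array names a single gene with a symbol made of EXPA and a number in the probe-to-gene annotation. There were 10 of them among 22746 probe sets that were no controls and among 26 alpha-expansin genes in the TAIR10.1 gene table. They were EXPA4 (AT2G39700), EXPA7 (AT1G12560), EXPA8 (AT2G40610), EXPA9 (AT5G02260), EXPA15 (AT2G03090), EXPA16 (AT3G55500), EXPA18 (AT1G62980), EXPA20 (AT4G38210), EXPA21 (AT5G39260) and EXPA24 (AT5G39310). The other alpha-expansin genes were not analysed here.

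The plants were Arabidopsis thaliana of the accession Col-0, grown on rafts over Murashige and Skoog medium in days with 16 h of light. All plants were given mannitol, a sugar alcohol that draws water out of cells, to 300 mM in the medium when 16 days old and 3 h into the light period. Roots and shoots were taken 0.5, 1, 3, 6, 12 or 24 h later, and each tissue and time has 2 arrays, 24 in all. Each later time was set against 0.5 h in the same tissue, and roots were set against shoots. No plants without mannitol were analysed here, so every change runs along the time in mannitol. It also runs along the light period: samples of 0.5 h were taken 3.5 h after lights-on, those of 12 h 15 h after it, and those of 24 h 3 h into the next light period. Nothing in the labels ties the 2 arrays of a group to separate cultures, and a p-value then measures the spread between these arrays, which may be technical.

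Signals are in linear array units, as computed by the submitters with the MAS5 method, and they are comparable between arrays for a given probe set but not between genes. Tests used log2(signal + 7.72), on which changes of weak signals come out too small, in one limma fit over all arrays. A probe set was tested if it lay above the 40th percentile of its own array, a signal of 17.6 to 31.3, on at least 2 arrays. This held for 16814 probe sets and for 8 of the 10 alpha-expansin genes. A change is called here if its p-value from limma, adjusted over all tested probe sets by the Benjamini-Hochberg method, was under 0.05. Values after ± are standard errors of log2 changes.

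The 2 arrays of a group correlated with r of 0.973 to 0.983 over the probe sets, and precision is limited throughout by having 2 arrays a group. All 8 measured markers of green tissue separated the tissues, with medians over 12 arrays of 19.9 to 218 in roots against 514 to 5029 in shoots. The root marker PYK10, a beta-glucosidase gene, lay between 2730 and 3957 in roots against 213 to 1028 in shoots. The summed signal of the green markers was 855 to 1101 in roots at 24 h against 377 to 386 at 0.5 h, and 14765 to 18586 in shoots at 24 h against 29229 to 32994 at 0.5 h. The ratio of the 3' to the 5' probe sets of an actin control, a sign of RNA quality, averaged 16.7 in shoots at 24 h against 6.77 at 0.5 h. A second actin control moved much less there, with 2.57 against 2.42, and so did a GAPDH control, with 1.57 against 1.35. In roots the group means of the first control ran from 11.1 to 12.3. The other controls were there at 1.96 and 1.34 at 24 h, against 1.74 and 1.10 at 0.5 h. These shifts run along the same times as the changes below, and their part in them was not tested. In whole tissue, fewer cells of a type and less RNA per cell cannot be told apart.

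EXPA16 was the alpha-expansin gene with the highest change in shoots, where it rose between 1 and 3 h and stayed up for the rest of the course. Its signals in shoots were 27.5 and 19.1 at 0.5 h, 27.5 and 16.1 at 1 h, 327 and 292 at 3 h, 926 and 834 at 6 h, 681 and 574 at 12 h, and 118 and 260 at 24 h. Both arrays of every time from 3 h on thus lay above all 4 arrays of the first hour, and no 2 neighbouring times overlapped in the order 6, 12, 3, 24 and 0.5 h. At 6 h the mean signal was 37.7 times that at 0.5 h, a change of 4.85 ± 0.33 (adjusted p = 2.7e-09). The change was 3.37 at 3 h, 4.36 at 12 h and 2.58 ± 0.33 at 24 h (adjusted p = 2.9e-06). Between 6 h and 24 h the gene fell by 2.27 ± 0.33 (adjusted p = 4.6e-05). It thus came part of the way back by 24 h, where the light period was again at the stage of the first samples.

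In roots EXPA16 was weak throughout. Its 12 root arrays lay between 2.03 and 13.8, below the lowest of the 12 shoot arrays, 16.1. Its changes in roots ran from -0.21 to 0.62 and none was called; at 12 h it was 1.07 and called without the second array of 0.5 h (adjusted p = 0.0436). EXPA16 passed the filter only through shoots, where it was above the 40th percentile on 10 of 12 arrays. The gap between the tissues is thus a description only.

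EXPA8 had the largest fall. Its signals in shoots were 160 and 174 at 0.5 h, 168 and 450 at 1 h, 5.38 and 39.5 at 3 h, 4.29 and 2.03 at 6 h, 1.90 and 1.36 at 12 h, and 1.30 and 1.86 at 24 h. The arrays of the first hour all lay above those of later times, and the 2 arrays of 1 h and of 3 h differed widely from each other. The change was 0.69 ± 0.50 at 1 h (adjusted p = 0.49), and the gene was lower by -2.81 ± 0.50 at 3 h (adjusted p = 2.8e-04). Without the first array of 3 h the change at 3 h was -1.89, and without the second it was -3.74. At 6 h the change was -4.02 ± 0.50 (adjusted p = 3.6e-06), and at 12 and 24 h it was -4.23 (adjusted p = 1.6e-06 and 1.2e-06). The size of these falls rests on the pseudocount, since the signals from 6 h on were at the floor: with 4 times the pseudocount they were -2.54, -2.61 and -2.61. At 24 h the level in shoots differed from that at 6 h by -0.22 ± 0.50 (adjusted p = 0.79).

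In roots EXPA8 started lower, at 37.8 and 35.5 at 0.5 h and 29.0 and 28.4 at 1 h. It was at 12.2 and 15.5 at 3 h, 3.11 and 10.2 at 6 h, 13.1 and 12.3 at 12 h, and 2.86 and 20.03 at 24 h. EXPA8 was above the 40th percentile on 3 root arrays, of 0.5 and 1 h, and on 5 shoot arrays, of 0.5 to 3 h. It was thus tested only through arrays of the early times, where it was high, and its falls in both tissues are a description only. All root arrays from 3 h on lay below those of the first hour. The fall was called at 6 h (-1.67 ± 0.50, adjusted p = 0.016) and at 24 h (-1.37, adjusted p = 0.036), and the values at 3 and 12 h were -1.04 (adjusted p = 0.14) and -1.12 (adjusted p = 0.088). Neither call held without each of its arrays: the largest adjusted p was 0.136 at 6 h and 0.385 at 24 h, and the change at 24 h was -0.68 without the first array of 24 h and -2.07 without the second. With 4 times the pseudocount the changes were -0.85 at 6 h and -0.70 at 24 h, and the call at 24 h was lost under 4 of 9 alternatives (adjusted p up to 0.071).

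EXPA4 moved in opposite directions in the 2 tissues. In roots its signals were 460 and 335 at 0.5 h, 391 and 304 at 1 h, 156 and 210 at 3 h, 138 and 119 at 6 h, 121 and 115 at 12 h, and 50.0 and 93.8 at 24 h. They stepped down at each time, with overlap only between 0.5 and 1 h and between 6 and 12 h. The gene was lower in roots by -1.56 ± 0.28 at 6 h (adjusted p = 4.1e-04), by -1.68 at 12 h (adjusted p = 1.8e-04) and by -2.39 ± 0.28 at 24 h (adjusted p = 5.1e-06), where its mean was 0.181 of that at 0.5 h. The change of -1.08 at 3 h (adjusted p = 0.0089) was no longer called without the first array of 0.5 h or of 3 h, with an adjusted p of up to 0.10. The value for 24 h against 6 h was -0.83 ± 0.28 (adjusted p = 0.090), and without 1 array it ran from -0.42 to -1.23, called without the second array of 24 h (adjusted p = 0.035).

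In shoots EXPA4 was at 51.0 and 47.8 at 0.5 h, 96.8 and 146 at 1 h, 117 and 118 at 3 h, 205 and 170 at 6 h, 224 and 150 at 12 h, and 29.5 and 51.3 at 24 h. All arrays from 1 to 12 h lay above those of 0.5 h, and the arrays of 24 h overlapped with those of 0.5 h. The gene was higher by 1.13 ± 0.28 at 3 h (adjusted p = 0.0039), by 1.77 at 6 h (adjusted p = 4.3e-05) and by 1.74 at 12 h (adjusted p = 4.1e-05). At 1 h it was higher by 1.15 (adjusted p = 0.012), a call that was lost without the second array of 0.5 h or of 1 h, with adjusted p-values up to 0.154. From 6 to 24 h it fell by 2.05 ± 0.28 (adjusted p = 2.2e-05), to a change against 0.5 h of -0.29 ± 0.28 (adjusted p = 0.39). Roots held more EXPA4 signal than shoots at 0.5 h, on average 398 against 49.4, and less at 6 h, on average 128 against 187.

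EXPA15 had an early rise in shoots and a lasting fall in roots. In shoots it was at 48.9 and 44.7 at 0.5 h, 135 and 150 at 1 h, 80.4 and 69.2 at 3 h, 82.0 and 48.6 at 6 h, 30.5 and 49.2 at 12 h, and 36.7 and 42.5 at 24 h. The 2 arrays of 1 h stood above all others. The rise at 1 h was 1.46 ± 0.21 (adjusted p = 1.9e-04), 3.05 times in the mean signals. At 3 h the gene was at 0.60 (adjusted p = 0.038), a call lost without any 1 of its 4 arrays (adjusted p up to 0.195). From 6 h to 24 h the change of -0.59 (adjusted p = 0.046) was lost without 3 of its 4 arrays (adjusted p up to 0.492) and moved to -0.25 without the first array of 6 h and to -0.92 without the second. At 6, 12 and 24 h no change against 0.5 h was called. The value at 6 h, 0.38, was 0.72 and called without the second array of 6 h (adjusted p = 0.0196) and 0.05 without the first.

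In roots EXPA15 was at 217 and 213 at 0.5 h, 194 and 177 at 1 h, 60.5 and 87.0 at 3 h, 35.8 and 37.6 at 6 h, 75.3 and 57.9 at 12 h, and 43.9 and 49.3 at 24 h. All root arrays from 3 h on lay far below those of the first hour. The change was -1.47 ± 0.21 at 3 h. It was -2.33 ± 0.21 at 6 h (adjusted p = 1.0e-06), -1.59 at 12 h and -2.04 ± 0.21 by 24 h (adjusted p = 2.0e-06). Each of these 4 calls held without each of its arrays. At 6 h the mean signal was 0.171 of that at 0.5 h, and the arrays of 6 h were the lowest of the course.

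**Figure D1:**
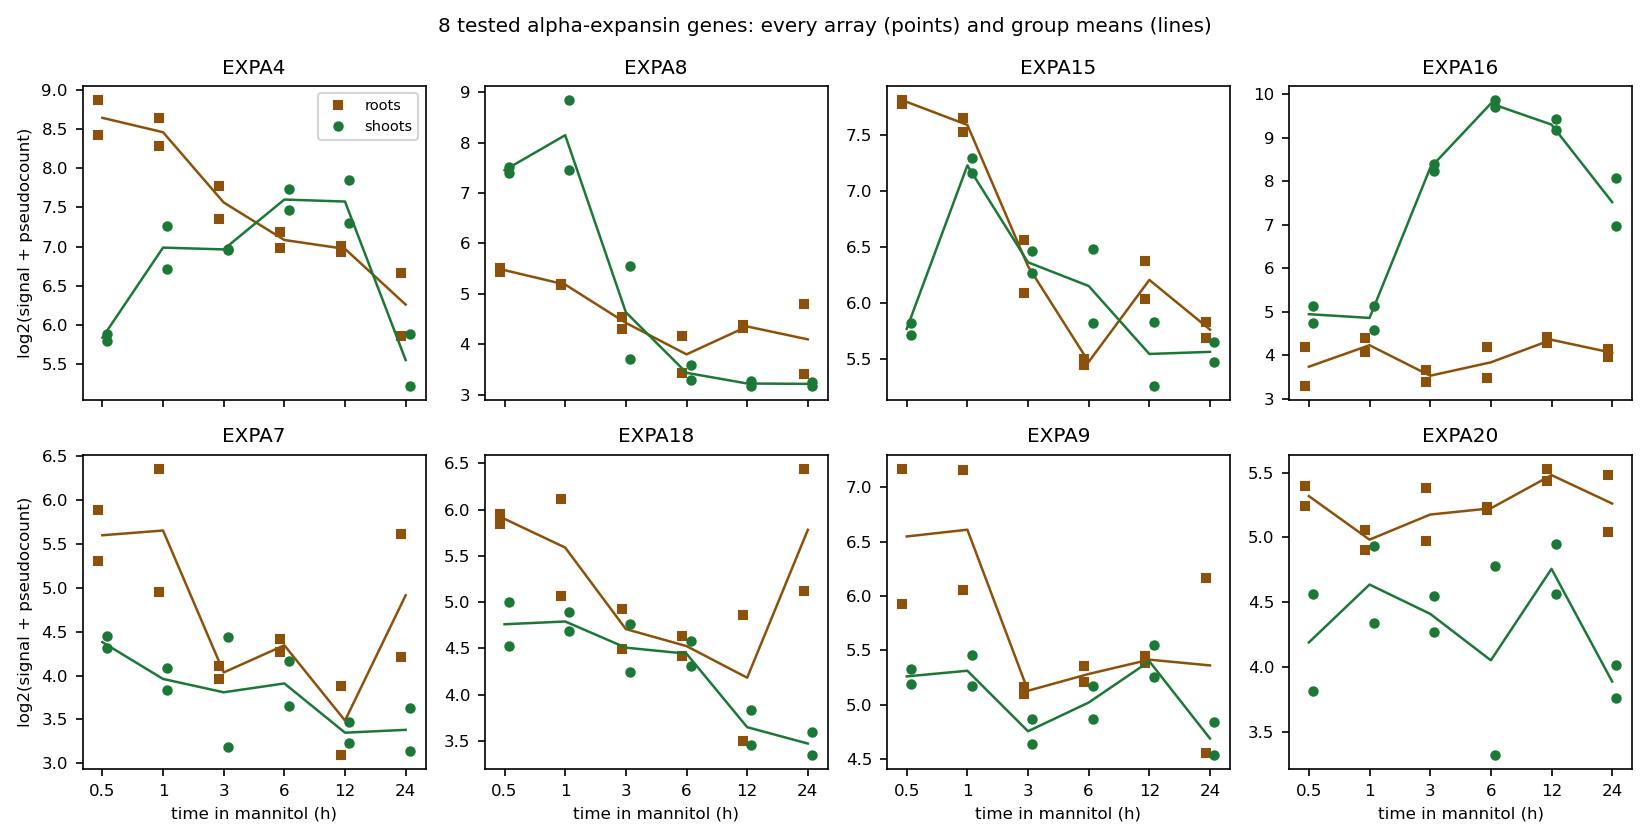
Signals of the 8 tested alpha-expansin genes on the log2(signal + 7.72) scale against time in mannitol (h), with every array as a point (squares for roots, circles for shoots) and the means of the 2 arrays as lines. The scale of the vertical axis differs between genes; EXPA16 climbs in shoots between 1 and 3 h, EXPA8 drops there, and EXPA4 and EXPA15 fall in roots.

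EXPA7 and EXPA18 are known for their part in root hairs, the outgrowths of single epidermal cells of the root. EXPA7 in roots was at 31.8 and 51.5 at 0.5 h, 23.2 and 73.8 at 1 h, 7.89 and 9.49 at 3 h, 11.6 and 13.7 at 6 h, 6.97 and 0.843 at 12 h, and 10.8 and 41.2 at 24 h. The arrays of 3, 6 and 12 h all lay below those of the first hour, and those of 24 h lay 1 among the low and 1 among the high arrays. EXPA7 was above the 40th percentile on 4 arrays, all of roots at 0.5, 1 and 24 h. It was thus tested only through arrays where it was high, and its falls in roots are a description only. EXPA7 fell by 2.11 ± 0.48 at 12 h (adjusted p = 0.0024), a size that rests on the pseudocount, with -1.05 for 4 times of it. It was at -1.56 at 3 h (adjusted p = 0.025), which was lost without 3 of the 4 arrays (adjusted p up to 0.184), and at -1.25 at 6 h (adjusted p = 0.052) and -0.68 at 24 h (adjusted p = 0.27).

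EXPA18 in roots was at 49.9 and 54.1 at 0.5 h, 25.8 and 61.4 at 1 h, 22.7 and 14.7 at 3 h, 17.1 and 13.6 at 6 h, 21.4 and 3.60 at 12 h, and 27.1 and 79.0 at 24 h. Like those of EXPA7, its arrays of 3, 6 and 12 h lay below all arrays of the first hour, and 1 of its 2 arrays of 24 h was the highest of the course. EXPA18 was above the 40th percentile on 5 arrays, all of roots at 0.5, 1 and 24 h, so its falls in roots are a description only as well. EXPA18 was lower at 6 h (-1.38 ± 0.43, adjusted p = 0.020) and at 12 h (-1.72, adjusted p = 0.0046). Its values were -1.19 at 3 h (adjusted p = 0.052) and -0.12 at 24 h (adjusted p = 0.85). For 24 h against 6 h it was at 1.26 (adjusted p = 0.099). Both values turn on 1 array: without 1 array the change at 24 h ran from -0.78 to 0.54, and that from 6 to 24 h from 0.60 to 1.92, called without the first array of 24 h (adjusted p = 0.031). With 4 times the pseudocount the changes were -0.84 at 6 h and -0.96 at 12 h. The call at 6 h was lost without any 1 of its 4 arrays (adjusted p up to 0.0988), and at 12 h the change was -1.04 and not called without the second array of 12 h. Over the group means, each tissue centred on its own mean, the root hair genes EXPA7 and EXPA18 had r = 0.886 (12 points from 24 shared arrays).

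In shoots both root hair genes were under the 40th percentile on all 12 arrays, EXPA7 between 1.08 and 14.0 and EXPA18 between 2.46 and 24.2. EXPA18 was called lower at 12 h (-1.11, adjusted p = 0.037) and at 24 h (-1.29, adjusted p = 0.016). The first call was lost without 3 of its 4 arrays (adjusted p up to 0.192) and the second without 2 of them (adjusted p up to 0.108). With 4 times the pseudocount the changes were -0.50 and -0.56, and with 0.25 of it -1.67 and -2.01. The root marker PYK10 fell in shoots along the same course, to 213 and 323 at 12 h and 357 and 364 at 24 h, against 867 and 1028 at 0.5 h, and its part in these falls was not tested. EXPA7 changed in shoots by -0.42 to -1.03, with no call in the fit over both tissues. In a limma fit of shoots alone it was called lower at 12 h (adjusted p = 0.037) and at 24 h (adjusted p = 0.038).

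EXPA9 in roots was at 53.1 and 136 at 0.5 h, 58.9 and 136 at 1 h, 28.1 and 26.5 at 3 h, 29.3 and 33.3 at 6 h, 34.0 and 35.9 at 12 h, and 15.8 and 64.2 at 24 h. The second array was the high one at 0.5, 1 and 24 h, by 1.24, 1.11 and 1.61 on the log2 scale. The gene was called lower at 3 h (-1.42 ± 0.43, adjusted p = 0.022), 6 h (-1.26, adjusted p = 0.030), 12 h (-1.13, adjusted p = 0.045) and 24 h (-1.19, adjusted p = 0.034). In a limma fit of roots alone these changes were not called (adjusted p = 0.064, 0.077, 0.103 and 0.085). None of the 4 calls held without the second array of 0.5 h, where the changes were -0.80, -0.64, -0.51 and -0.57. At 24 h the change was -0.38 without the first array of 24 h, and not called, and -1.99 without the second. In shoots EXPA9 lay between 15.6 and 39.1 and its changes of -0.57 to 0.14 were not called in the fit over both tissues. In a limma fit of shoots alone the change of -0.57, at 24 h, was called (adjusted p = 0.031).

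EXPA20 did not pass the test at any time against 0.5 h. Its signals lay between 22.3 and 38.4 in roots against 2.32 to 23.2 in shoots, and its changes ran from -0.34 to 0.16 in roots and from -0.30 to 0.57 in shoots, with standard errors of 0.35.

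EXPA21 and EXPA24 were above the 40th percentile on 0 of 24 arrays and were not tested. EXPA21 lay between 0.912 and 4.17 in roots and between 0.723 and 2.27 in shoots, and EXPA24 between 1.34 and 9.32 in roots and between 1.03 and 7.37 in shoots. In the gene table EXPA21 and EXPA24 are the ends of a run of 6 neighbouring alpha-expansin genes, with EXPA22, EXPA23, EXP26 and EXPA25 between them. The other 4 are read by 2 probe sets that name 2 genes each and so fall outside the rule. Their signals ran from 0.246 to 5.74 for EXP26 and EXPA22 and from 0.572 to 13.8 for EXPA25 and EXPA23 over the 24 arrays.

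**Figure D2:**
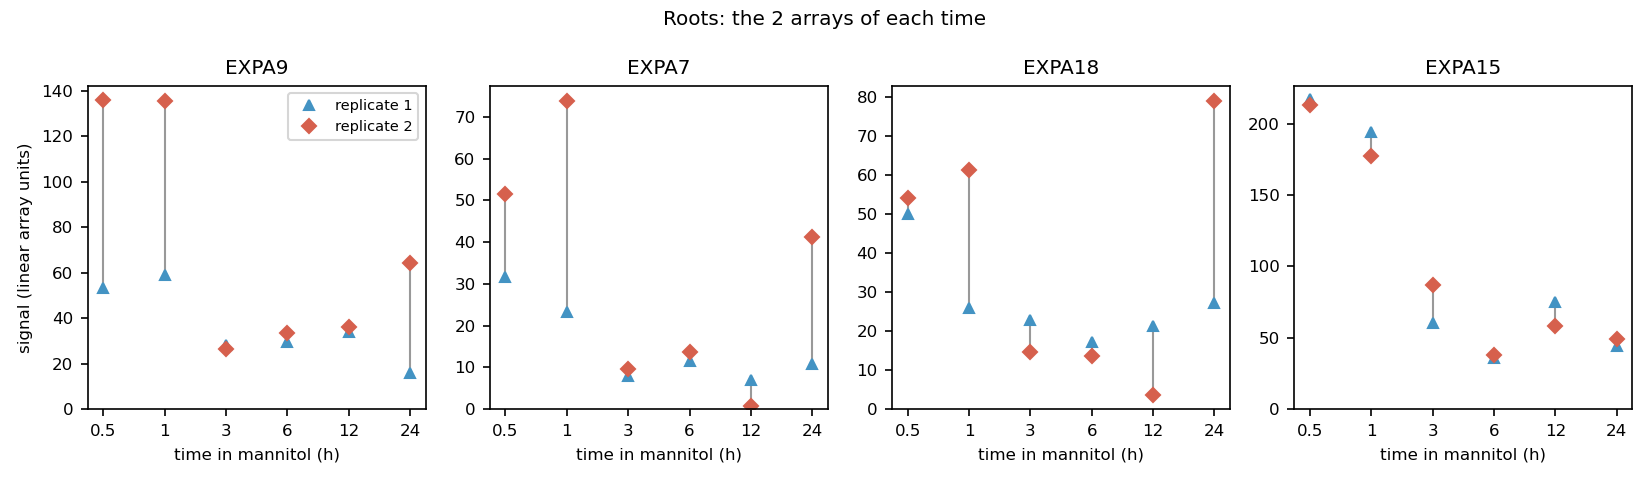
Linear signal of 4 alpha-expansin genes in roots against time in mannitol (h), with triangles for the first and diamonds for the second array of each time and a line joining the 2. The arrays of EXPA9, EXPA7 and EXPA18 lie far apart at 1 and 24 h, while those of EXPA15 lie close together beside its fall.

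Counted over the 8 tested genes, a description of genes that differ in how they passed the filter, the calls in roots all pointed down. EXPA4 and EXPA15 were above the 40th percentile on all 24 arrays and EXPA9 on 11 of 12 root arrays. EXPA7 and EXPA18 were above it on 4 and 5 arrays, all of roots at 0.5, 1 and 24 h, and EXPA8 on 3 root arrays of 0.5 and 1 h and 5 shoot arrays. At 3 to 12 h in roots these 3 genes were above it on 0 arrays, so they were tested only through arrays where they were high, and nothing is read from their share in the counts. At 1 h 0 of 8 were called, against 0.565% higher and 0.172% lower of all tested probe sets by limma. Of the 8 genes, 4 were lower at 3 h (background 13.7% lower and 10.3% higher), 5 at 6 h (19.5% and 14.4%), 5 at 12 h (21.9% and 15.8%) and 4 at 24 h (23.8% and 17%), and 0 were higher at any time. Among EXPA4, EXPA9 and EXPA15 all 3 were called lower at each of these times, with the limits for EXPA9 and for EXPA4 at 3 h given above. EXPA9 was called at none of them in a fit of roots alone. Only the fall of EXPA15 was called at all 4 times and held without each array, and at 24 h 2 of the 4 calls, those of EXPA4 and EXPA15, also held with quantile normalization and with median scaling. Between 24 and 6 h in roots 0 of 8 were called, against 3.19% higher and 2.68% lower.

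In shoots the calls went both ways. EXPA8 was above the 40th percentile on both arrays of 0.5 and 1 h, on 1 of 3 h and on 0 later. EXPA16 was above it on 1 array each of 0.5 and 1 h and on both of every later time. EXPA18 was above it on 0 of 12 shoot arrays and was tested only through roots. EXPA8 and EXPA16 thus passed in shoots mostly where they were high, and nothing is read from the share of these genes in the counts. At 1 h EXPA4 and EXPA15 were higher and 0 lower (background 4.26% higher and 4.54% lower). At 3 h EXPA16, EXPA4 and EXPA15 were higher and EXPA8 lower (16.9% and 18.7%). At 6 h EXPA16 and EXPA4 were higher and EXPA8 lower (22.8% and 25.4%), and at 12 h EXPA18 joined EXPA8 (25.6% and 27.4%). At 24 h EXPA16 alone was higher, and EXPA8 and EXPA18 were lower (25.4% and 33.2%). At 6, 12 and 24 h the called share of the 8 genes, 3, 4 and 3 of them, was no larger than that of all tested probe sets. From 6 to 24 h 3 were lower, EXPA16, EXPA4 and EXPA15, and 0 higher (17.2% lower and 13.1% higher).

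**Figure D3:**
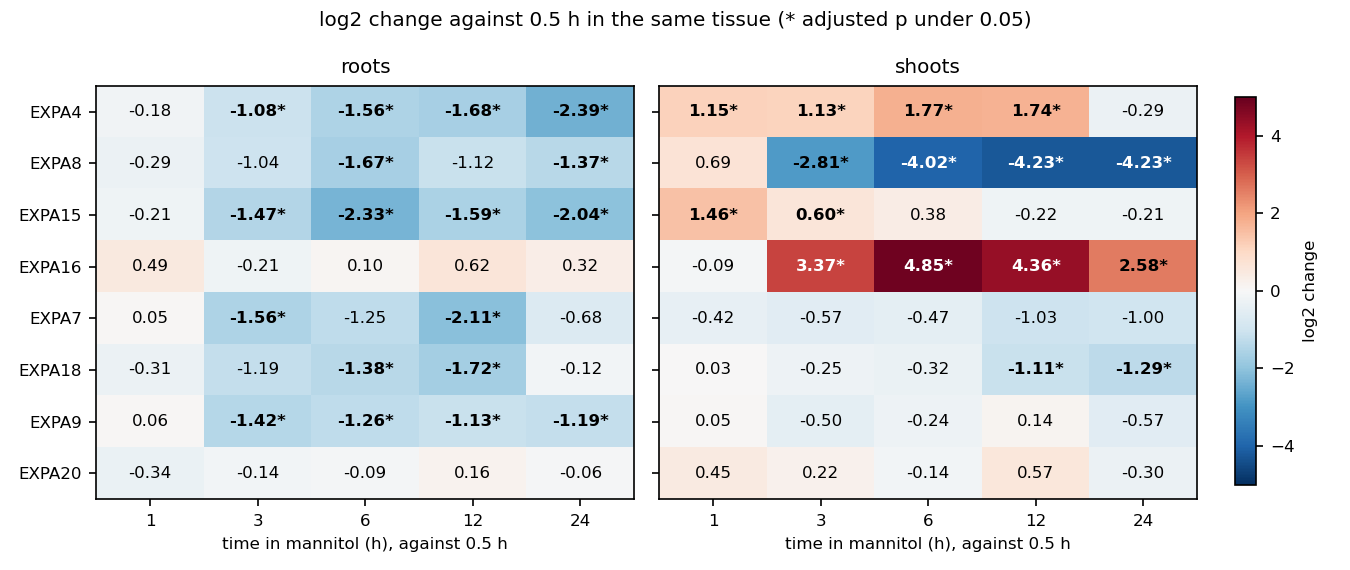
Change on the log2 scale against 0.5 h in the same tissue for the 8 tested alpha-expansin genes at 1, 3, 6, 12 and 24 h, roots left and shoots right, with red for higher and blue for lower; a star and bold type mark an adjusted p under 0.05 by limma. The starred values in roots are all negative, and the 2 extremes in shoots are EXPA16 (4.85 at 6 h) and EXPA8 (-4.23 at 12 and 24 h).

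The change in roots was tested against the change in shoots. At 6 h it was lower in roots for EXPA16 by -4.75 ± 0.46, for EXPA4 by -3.33 ± 0.39 and for EXPA15 by -2.71 ± 0.30, and it stood above the shoot change for EXPA8 by 2.35 ± 0.70 (adjusted p = 1.5e-06, 9.0e-06, 6.0e-06 and 0.019). These were 3 genes lower and 1 higher of 8, against 15.1% and 13.6% of all tested probe sets. At 24 h the same 4 genes differed in the same directions, by -2.26, -2.10 and -1.83 for EXPA16, EXPA4 and EXPA15 and by 2.86 for EXPA8 (adjusted p = 0.0010, 4.5e-04, 1.6e-04 and 0.0042), against 17.3% lower and 18% higher. The EXPA8 difference at 6 h was lost without 3 of its 8 arrays (adjusted p up to 0.0805), and the other 7 held without each array. For EXPA8 the sign of the difference is fixed by the levels at 0.5 h, a mean of 36.6 in roots against 167 in shoots: on this scale a root signal of 0 would be a change of -2.52, less than the falls found in shoots. Its size rests on the pseudocount, with 1.69 at 6 h and 1.91 at 24 h for 4 times the pseudocount, and it does not show that EXPA8 responded differently in the tissues. EXPA16 was above the 40th percentile on 0 of 12 root arrays and 10 of 12 shoot arrays, and a root signal of 0 would be a change of -0.78. Its difference sets a rise in shoots, through which it was tested, against weak root signals, and is a description only. Nothing is read from the share of EXPA8 and EXPA16 in these counts. For EXPA7, EXPA9, EXPA18 and EXPA20 no difference was called. Their 95% intervals at 24 h ran from -1.11 to 1.74 for EXPA7, from -1.88 to 0.65 for EXPA9, from -0.11 to 2.45 for EXPA18 and from -0.81 to 1.30 for EXPA20.

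**Figure D4:**
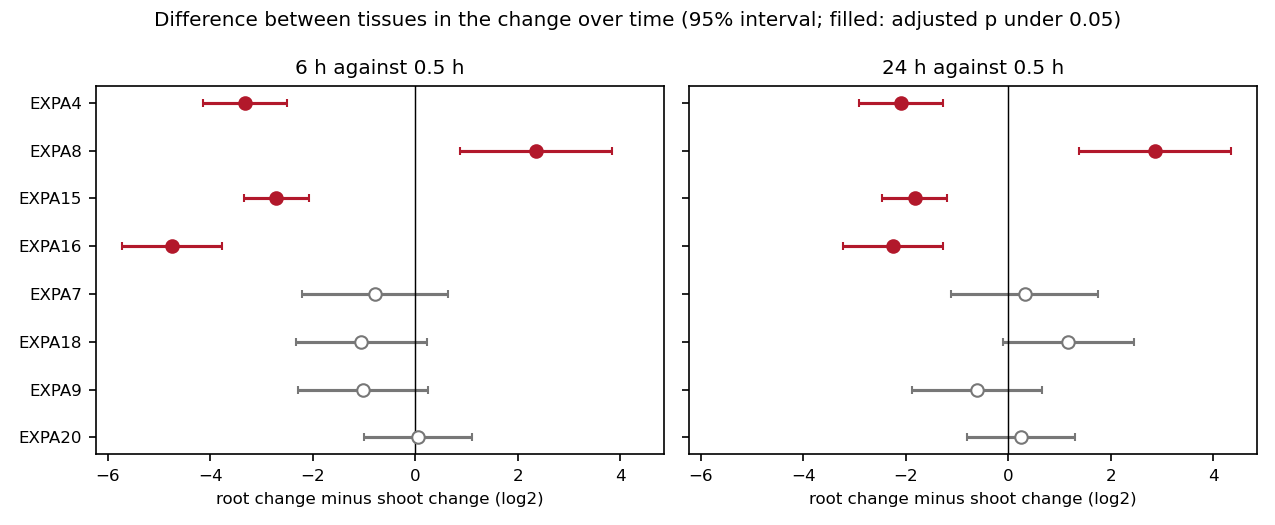
Change in roots minus change in shoots against 0.5 h, on the log2 scale, at 6 h (left) and 24 h (right) for the 8 tested alpha-expansin genes, with 95% intervals from the limma fit and filled red points for an adjusted p under 0.05. EXPA4, EXPA15 and EXPA16 lie left of 0 and EXPA8 right of it at both times.

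Averaged over the 6 times, all 8 genes differed between roots and shoots, which is read against 55% of all tested probe sets higher and 29.1% lower in roots. EXPA20 was higher in roots by 0.92 ± 0.14, EXPA7 by 0.87 and EXPA18 by 0.84, which were 0.48, 0.44 and 0.47 with 4 times the pseudocount. EXPA7, EXPA18 and EXPA20 were above the 40th percentile on 4, 5 and 7 of 12 root arrays, against 0, 0 and 1 of 12 shoot arrays. They thus passed the filter only or mainly through roots, and nothing is read from their direction. EXPA4 was higher by 0.75, EXPA9 by 0.65 and EXPA15 by 0.42, and EXPA16 was lower (-3.50 ± 0.13, adjusted p = 2.5e-14). The size for EXPA16 is set by the pseudocount, since it was above the 40th percentile on 0 of 12 root arrays: it was -2.51 with 4 times the pseudocount and -4.11 with 0.25 of it. EXPA16 passed the filter through 10 shoot arrays alone, so its direction is a description only. EXPA8 was at -0.46 (adjusted p = 0.043), which was lost without any 1 of 19 of the 24 arrays and moved between -0.20 with 0.25 of the pseudocount and -0.62 without 1 array. The median over all tested probe sets was 0.25 here and 0.03 after median scaling, where EXPA15 was at 0.20. At 0.5 h alone the same 6 genes were higher and the same 2 lower, with EXPA4 at 2.81 ± 0.28, EXPA15 at 2.03 ± 0.21, EXPA8 at -1.98 ± 0.50 and EXPA16 at -1.21 ± 0.33. This order did not hold at all times. At 6 h the mean signals in roots and shoots were 128 and 187 for EXPA4, 36.7 and 65.3 for EXPA15, and 6.67 and 3.16 for EXPA8, near the floor. Those of EXPA7, EXPA9, EXPA16 and EXPA20 kept their order at 6 h. EXPA18 was at 15.3 in roots and 14.1 in shoots then, too close and too weak to give an order. The average over times is thus no steady level.

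The courses of the genes were compared by Pearson's r over the 12 group means, each tissue centred on its own mean, a description of points that share their arrays. EXPA8 and EXPA16 ran against each other (r = -0.870), and EXPA4 and EXPA15 ran partly together (r = 0.669). In roots EXPA16 lay between 2.03 and 13.8 with no called change, so its opposition to EXPA8 is described for shoots only. Among 9198 tested probe sets that name 1 gene and no alpha-expansin, those most like EXPA16 were AT2G23120 (r = 0.963), AT5G27930 (0.960) and XERICO (0.959), which is known in Arabidopsis to raise abscisic acid levels when overexpressed. In shoots XERICO averaged 136 at 0.5 h, 710 at 6 h, 729 at 12 h and 452 by 24 h. Its root averages were 235, 234, 250 and 228 at these times. Most like EXPA8 were AT1G16350 (0.987), AT4G34290 (0.984) and AT3G46490 (0.980). In shoots AT4G34290 averaged 206 at 0.5 h, 101 at 3 h and 46.9 by 24 h. Most like EXPA4 were the beta-glucosidase gene BGLU42 (0.940), AT4G12750 (0.934) and AT3G26782 (0.931). BGLU42 averaged 72.0 at 24 h against 150 at 0.5 h in roots, and 65.8 at 0.5 h, 108 at 3 h and 47.9 at 24 h in shoots.

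Other genes of wall growth were counted by lists, of which only the tested members speak. Some of these passed the filter on few of the 24 arrays: GH9B18, GH9C3, XTH33, IRX15 and IAA29 on 2, and CSLC12 on 3. EXPB1 passed it on 6, and GH9C1, XTH16 and XTH20 on 9. Such genes may have been tested only through arrays where they were high, so the counts and medians of the lists are a description. The counts at 24 h are to be read against 17% of all tested probe sets higher and 23.8% lower in roots, and 25.4% and 33.2% in shoots, and those at 6 h against 14.4% and 19.5% in roots and 22.8% and 25.4% in shoots. No list was tested against the rest. Of the other expansins, the beta-expansins and expansin-like genes, 7 of 9 were tested. In roots at 24 h 2 of the 7 were higher and 4 lower (background 17% and 23.8%), and in shoots 1 was higher and 3 lower (25.4% and 33.2%). EXLB1, an expansin-like gene with no settled function, had the largest change in both tissues: it averaged 1647 at 24 h against 128 at 0.5 h in roots (3.60 ± 0.33) and 1563 against 45.0 in shoots (4.92 ± 0.33). In roots at 6 h 2 of these expansins were higher and 3 lower, and in shoots 1 and 1.

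Of the XTH genes, for enzymes that cut and rejoin xyloglucan chains in the wall, 7 of 10 were tested. In roots at 24 h 1 was higher and 3 were lower (background 17% and 23.8%), with XTH20 changed most (-2.39 ± 0.26). In shoots 0 were higher and 5 lower (25.4% and 33.2%), with XTH16 changed most (-3.50 ± 0.29). Of the GH9 genes, for endoglucanases, 8 of 15 were tested, and 5 were lower and 0 higher at 24 h in each tissue, beside the same background shares. GH9B13 changed most, by -2.84 ± 0.26 in roots and -2.16 ± 0.26 in shoots. The medians at 24 h were -1.16 for GH9 and -0.69 for XTH in roots, and -0.96 and -0.94 in shoots, against -0.08 and -0.12 over all tested probe sets.

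Of 11 genes for the synthesis of wall polymers, 10 were tested. In roots at 24 h 1 was higher, IRX15 (1.18 ± 0.38), a gene of xylan synthesis, and 5 were lower (background 17% and 23.8%). In shoots 2 were higher and 5 lower (25.4% and 33.2%), with CSLA03, of a mannan synthase family, changed most (-3.15 ± 0.24). Of 3 pectin enzyme genes 2 were tested, too few to set against a share. The pectin methylesterase gene PME61 was higher in roots at 24 h (2.09 ± 0.28), with 0 lower, and in shoots both were lower, ATPMEPCRB by -1.20 ± 0.29.

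Of 12 auxin response genes 6 were tested. In roots at 24 h 2 were higher and 0 lower (background 17% and 23.8%), WES1 by 1.27 ± 0.33, which encodes an enzyme that joins auxin to amino acids. In shoots 1 was higher, GH3.3 (1.01 ± 0.32), of the same enzyme family, and 1 lower (25.4% and 33.2%). All 3 genes on the list of brassinosteroid and gibberellin were gibberellin receptors, and 0 were called in roots at 24 h. In shoots 1 was higher, GID1B (1.39 ± 0.24), and 1 lower, again beside 25.4% and 33.2% of all tested probe sets. The single measured gene of root hair growth, SCN1, was not called in roots at 24 h (0.10) and was higher in shoots (0.81 ± 0.15). The lists of proton pumps and of guard cell markers had 0 measured genes here.

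**Figure D5:**
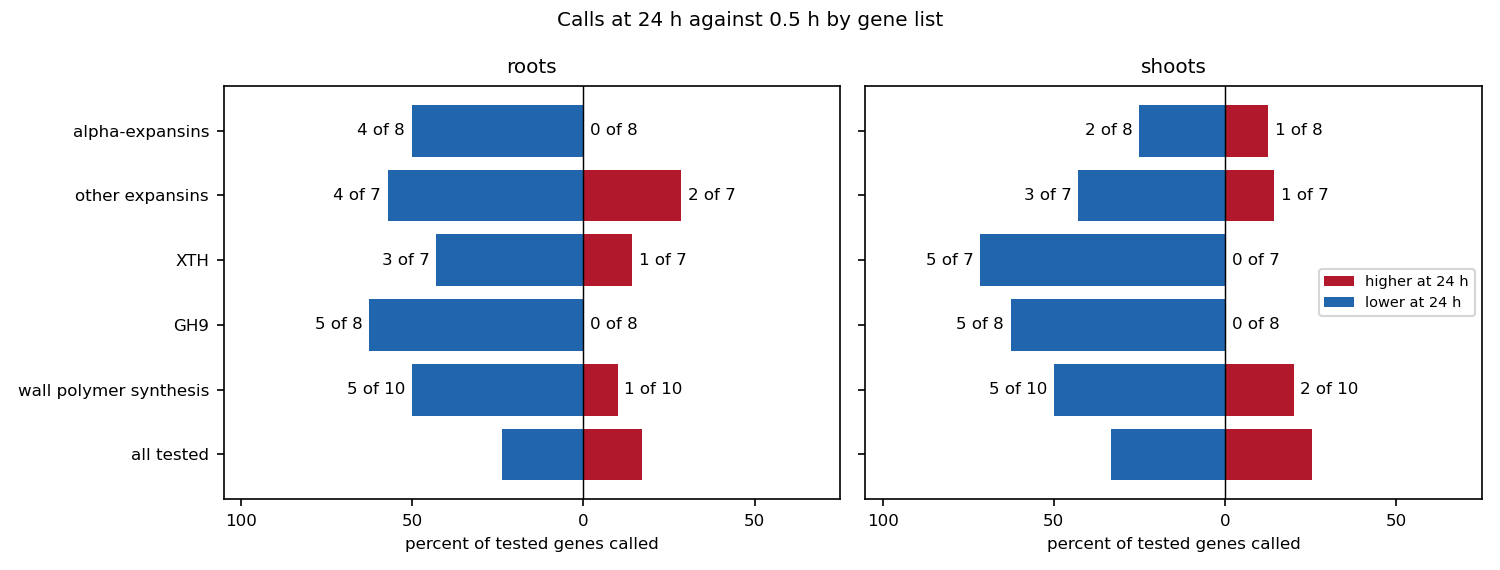
Percent of the tested genes of each list called lower (blue, left) and higher (red, right) at 24 h against 0.5 h by limma, roots in the left panel and shoots in the right, with counts beside the bars and all 16814 tested probe sets in the bottom row. In roots 4 of 8 alpha-expansins were lower and 0 higher, and in shoots 2 were lower and 1 higher.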

How the data were processed

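The values used are the linear signal intensity per probe set as deposited, computed with MAS5 per the submitters' processing notes; which version is not given in the sources used here. Of the table's rows, 64 control probe sets were left out of 22810. From these values log2(signal + 7.72) was computed, where the constant is the 20th percentile over the signals of all arrays. Limma 3.58.1 in R 4.3.3 was fitted to 12 group means on 24 arrays with an intensity trend, on 12 residual and 5.28 prior degrees of freedom, and tried on simulated arrays. Samples were grouped by tissue and time from their titles. The alternatives were quantile normalization, median scaling, other pseudocounts and filters, a fit of 1 tissue, no trend, the replicate number as a block, and leaving out each array.

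Named were every alpha-expansin gene of the rule, the called member with the largest change in a list and comparison, and the 3 genes most like EXPA4, EXPA8 and EXPA16 in course. The members, lists and tests were chosen with earlier results of these data known. Gene names came from the probe-to-gene annotation, which names 1 gene for 13513 probe sets, several for 503 and none for 8730, and from the TAIR10.1 gene table.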

Additional observations from a re-analysis of the deposited data

Results flagged for a closer look

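The change against 0.5 h differed between roots and shoots by the limma test of the difference itself for 4 of the 8 tested alpha-expansin genes at both times tested. Of all tested probe sets, 15.1% were lower and 13.6% higher in this test at 6 h, and 17.3% and 18% at 24 h. EXPA16 differed by -4.75 at 6 h and -2.26 at 24 h, with its rise in shoots and weak signals in roots. It passed the filter through shoot arrays alone, so its difference is given as a description only. EXPA4 differed by -3.33 at 6 h and -2.10 at 24 h, with a fall in roots at both times and, in shoots, a rise at 6 h and no call at 24 h. EXPA15 differed by -2.71 at 6 h and -1.83 at 24 h, with a fall in roots and no call in shoots at these times. EXPA8 stood the other way, at 2.35 at 6 h and 2.86 at 24 h, but its lower start in roots fixes this sign on the log2 scale, and with 4 times the pseudocount the values were 1.69 and 1.91, so it is given as a description only. No group had the 4 samples that a check for single outlying arrays needs.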

How the results depend on the processing

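Of 53 calls of alpha-expansin genes, 36 held under all alternatives run and without each array of their comparison, and 17 were lost at least once; no call changed direction. With quantile normalization 114 of 120 gene results kept their side of the threshold and with median scaling 115, and alpha-expansin calls in roots at 24 h then numbered 2 under either, against 4. In a fit of 1 tissue they numbered 3 in roots at 6 h, against 5, and 5 in shoots at 24 h, against 3. Probe sets called in roots at 1 h numbered 222 with quantile normalization and 264 with 4 times the pseudocount, against 124. The causes were not tested.

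Without 1 array, alpha-expansin calls ranged from 1 to 5 in roots at 3 h, 2 to 6 at 6 h, 3 to 5 at 12 h, 2 to 4 at 24 h and 0 to 1 from 6 to 24 h. In shoots they ranged from 1 to 2 at 1 h, 3 to 4 at 3, 6 and 12 h, 2 to 3 at 24 h and 2 to 3 from 6 to 24 h. They ranged from 7 to 8 between tissues, from 3 to 4 for the difference in change at 6 h and from 4 to 5 at 24 h. Called probe sets ranged in roots from 19 to 197 at 1 h, 1955 to 4165 at 3 h, 3317 to 5805 at 6 h, 4051 to 6434 at 12 h, 4604 to 6974 at 24 h and 328 to 1024 from 6 to 24 h. In shoots they ranged from 856 to 1536 at 1 h, 4184 to 6112 at 3 h and 3265 to 5162 from 6 to 24 h.

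Median scaling moved the split of all calls: in roots to 2503 higher and 1275 lower at 3 h (reported 1738 and 2310), 3300 and 2055 at 6 h (2415 and 3281), 3567 and 2455 at 12 h (2649 and 3685), 3716 and 2725 at 24 h (2866 and 4002) and 137 and 11 at 1 h (95 and 29). In shoots it gave 5441 and 4386 at 24 h (4279 and 5575) and 3005 and 2266 from 6 to 24 h (2196 and 2887), and between tissues 7053 and 6457 (9248 and 4893). With it the median over all tested probe sets was 0.05 in roots at 3, 6 and 24 h and 0.06 at 12 h (reported -0.09, -0.08, -0.08 and -0.07), 0.05 in shoots at 24 h and from 6 to 24 h (reported -0.12 and -0.05), and 0.03 between tissues (reported 0.25, and 0.14 with quantile normalization). Quantile normalization left 2 higher and 1 lower alpha-expansin calls in shoots at 12 h, against 2 and 2.

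Replicate numbers did not pair the samples throughout. Over 15 pairs of times per tissue, deviations from group means correlated at -0.05 to 0.33 in roots (median 0.06), with 6 over 0.1. In shoots they correlated at -0.16 to 0.35 (median 0.005), with 5 over 0.1. Some times may thus share a deviation between replicates. With the replicate number as a block 117 of 120 results kept their side, with 3 calls in shoots at 3 h (reported 4), 2 from 6 to 24 h (3) and 6 in roots at 6 h (5).

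Weak signals limit the precision: EXPA8 in shoots from 6 h on, EXPA16 in roots and EXPA7 in shoots lay under 17.6 on every array, the lowest 40th percentile of any array.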
